A study of Mus musculus with 14 samples.

Results

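The 35 genes described here make up the digestive machinery of the lysosome and its transcriptional control. They were chosen by gene name as 3 transcription factors (Tfeb, Tfe3 and Mitf), 5 membrane proteins, 8 cathepsins, 9 glycosidases and other glycan enzymes, 4 lipid enzymes and activators, 4 proton pump subunits, and Tpp1 and Grn. Earlier results of these data were known when the choice was made, so counts of the 35 set beside all genes are descriptions. All 35 were listed in both data sets, among 54540 gene symbols kept for compound PD and its controls and 23648 kept for compound OB and its controls. RNA was sequenced in 12 libraries of BFU-E (erythroid burst-forming units), mouse progenitors at an early step of red blood cell formation. The cells came from the fetal liver of C57BL/6 mice and were kept in StemSpan SFEM II medium in all 4 groups. The groups of 3 libraries are compound PD at 3 nM with its own DMSO solvent controls (PD DMSO), and compound OB at 100 µM with its own DMSO controls (OB DMSO). The sources used here give neither the age of the fetuses, nor the sort that isolated the cells, nor the time in culture, nor whether replicates were separate cultures or animals. Every p-value therefore measures only the spread between these libraries, which may be technical. A further 2 samples, CREB chromatin and its input, are not analysed here.

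Lysosomes are acid compartments in which proteins, glycans and lipids are cut into reusable parts. The V-ATPase pumps protons in, cathepsins cut proteins, glycosidases trim sugars from glycoproteins and glycolipids, and small activator proteins present membrane lipids to the enzymes. TFEB, TFE3 and MITF are related basic helix-loop-helix factors that bind the CLEAR element, a sequence built on CACGTG, in the promoters of many of these genes. When nutrients are plentiful the kinase mTORC1, which sits on the lysosome, phosphorylates TFEB and holds it in the cytoplasm, so that its activity can differ without a change in its RNA. In the red cell lineage lysosomes digest mitochondria and other organelles during late maturation, and granulocytes, mast cells and macrophages carry large stores of lysosomal enzymes.

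The promoters show which of the 35 genes carry the CACGTG core of that element. RefSeq promoter sequences of GRCm38.p6, 300 bases each from 250 before to 50 after a gene's start, were in the table for 31 of the 35 genes, and Ctsb, Ctsh, Asah1 and Atp6v1h were not in it. CACGTG, which reads the same on both strands, was in a promoter of 13 of the 31 (41.9%). It was in 8.09% of all 27025 genes of the table and in 12.2% of the 8891 of them that were tested in the PD set. The longer TCACGTG, searched with its reverse complement CACGTGA, was in 11 of the 31 (35.5%) against 4.29% of all genes and 7.41% of those tested. The palindrome TCACGTGA was in 6 (19.4%) against 1.12% of all genes and 2.33% of those tested. Its extension to 10 bases, with G before and C after it, was in 0 of the 31, against 0.37% of all genes and 0.87% of those tested. These forms overlap, since each longer one holds the shorter ones. Median GC content of the promoters was 59.6% for members with CACGTG, 56.6% for those without it and 52.8% for all genes. The part of base composition in these shares was not tested. A match is a description of the letters and not a measured binding site, and CACGTG alone is the core and not the whole element. For each of the 13 genes, the 26 bases around the CACGTG nearest the start are printed to show how far the flanking letters are shared. Capitals mark CACGTG together with a T before it and an A after it where these were present.
Atp6v0d1, chr8:105566052-105566077, minus strand: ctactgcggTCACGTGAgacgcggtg
Atp6v1a, chr16:44139375-44139400, minus strand: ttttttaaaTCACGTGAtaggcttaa
Ctsa, chr2:164833768-164833793, plus strand: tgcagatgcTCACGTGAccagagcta
Ctsd, chr7:142387910-142387935, minus strand: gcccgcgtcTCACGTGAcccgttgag
Ctsf, chr19:4855076-4855101, plus strand: ccccgtggtcCACGTGcctcgcgtaa
Ctsl, chr13:64370741-64370766, minus strand: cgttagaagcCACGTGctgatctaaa
Gaa, chr11:119267813-119267838, plus strand: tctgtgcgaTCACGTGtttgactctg
Gla, chrX:134601184-134601209, minus strand: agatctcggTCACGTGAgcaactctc
Glb1, chr9:114401020-114401045, plus strand: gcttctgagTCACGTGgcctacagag
Lamp1, chr8:13159136-13159161, plus strand: gtgaccacaTCACGTGcggaacggag
Mcoln1, chr8:3500464-3500489, plus strand: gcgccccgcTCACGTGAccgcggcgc
Naglu, chr11:101070011-101070036, plus strand: accttcaggTCACGTGgcccgaggtc
Sgsh, chr11:119355524-119355549, minus strand: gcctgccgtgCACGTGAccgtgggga

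The 6 genes with the full palindrome span several roles. Atp6v0d1 and Atp6v1a are pump subunits, Ctsa and Ctsd are proteases, Gla is a glycosidase and Mcoln1 is the calcium channel TRPML1 of the lysosomal membrane. Distances are counted to the first base of CACGTG, with the base before the start as -1. The copy nearest the start lay between -236 in Ctsl and 6 in Ctsa. The start is that of the promoter used, which in some genes, among them Ctsl, Atp6v1a and Cd63, lies inside the gene's coordinates. A further promoter of Ctsa, at an earlier start, holds no CACGTG. Lamp1 held 4 copies, the most of the 13. The 250 bases before the start are printed in full for 4 genes. Among them Mcoln1, with log2 fold changes of 0.20 with compound PD and 0.016 with compound OB, is an example with more than 1 copy. Mcoln1 holds 2 copies, at -71 and -45, and Ctsf, the gene with the largest fold change in the OB set, holds 1 copy at -79. Hexa and Grn had the largest fold changes in the PD set and hold no CACGTG in these letters. Capitals mark the same letters as above.
Mcoln1, chr8:3500269-3500518, plus strand: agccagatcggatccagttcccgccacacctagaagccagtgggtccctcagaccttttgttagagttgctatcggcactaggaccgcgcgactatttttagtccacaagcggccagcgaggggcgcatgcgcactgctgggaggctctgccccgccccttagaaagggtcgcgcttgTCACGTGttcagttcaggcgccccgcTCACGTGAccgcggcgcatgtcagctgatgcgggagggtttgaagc
Ctsf, chr19:4854915-4855164, plus strand: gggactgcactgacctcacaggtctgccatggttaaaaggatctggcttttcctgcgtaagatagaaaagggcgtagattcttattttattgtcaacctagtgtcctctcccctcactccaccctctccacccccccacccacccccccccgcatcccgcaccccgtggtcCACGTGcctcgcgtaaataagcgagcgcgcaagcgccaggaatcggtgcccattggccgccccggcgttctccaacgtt
Hexa, chr9:59539290-59539539, plus strand: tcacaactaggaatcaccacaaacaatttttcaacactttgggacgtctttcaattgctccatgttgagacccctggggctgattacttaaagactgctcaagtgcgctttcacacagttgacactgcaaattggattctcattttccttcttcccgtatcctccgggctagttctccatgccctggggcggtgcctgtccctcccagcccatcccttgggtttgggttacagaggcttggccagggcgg
Grn, chr11:102430257-102430506, plus strand: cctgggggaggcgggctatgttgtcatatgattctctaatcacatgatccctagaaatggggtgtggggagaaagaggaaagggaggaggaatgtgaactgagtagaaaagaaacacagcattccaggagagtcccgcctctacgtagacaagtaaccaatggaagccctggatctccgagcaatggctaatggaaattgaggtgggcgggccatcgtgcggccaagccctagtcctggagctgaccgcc

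All but 3 of the genes (Mitf, Ctsh and Gm2a in the OB set) had a mean above 1 FPKM in both sets. FPKM divide a gene's fragments by its length and by the size of its library, so levels of different genes can be set side by side. Ctsd, the aspartic protease of the lysosome, had the highest mean over the 6 libraries of a set, 451 FPKM in the PD set and 315 FPKM in the OB set. It stood above 98.3% of the genes tested in the PD set and 97.3% of those tested in the OB set. Lamp1, the most abundant glycoprotein of the lysosomal membrane, was next with 248 FPKM in the PD set and 229.8 FPKM in the OB set. Ctsb, a cysteine protease, followed in both sets, at 229.9 FPKM in the PD set and 97.5 FPKM in the OB set. The transcription factors were far lower. Tfe3 averaged 19.6 FPKM in the PD set and 14.2 FPKM in the OB set. Tfeb averaged 6.18 FPKM in the PD set and 3.84 FPKM in the OB set, and Mitf 1.4 FPKM in the PD set and 0.27 FPKM in the OB set. Across the 35 genes the order of levels in the PD set followed that in the OB set, with a Spearman's rho of 0.79 over 35 genes, which are not independent replicates. Both sets are cultured BFU-E of the same strain, but their tables were normalised separately with different annotations.

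Several genes stood much higher in the PD set. Ctsh, a cysteine protease, averaged 20.9 FPKM in the PD set and 0.18 FPKM in the OB set. Gm2a, the activator that presents GM2 ganglioside to hexosaminidase A, averaged 5.78 FPKM in the PD set and 0.28 FPKM in the OB set. Cd63, a tetraspanin of late endosomes and secretory granules, averaged 198 FPKM in the PD set and 10.4 FPKM in the OB set, a ratio of 18.9. Grn, which encodes progranulin, averaged 88.0 FPKM in the PD set and 12.0 FPKM in the OB set, a ratio of 7.32. The same ratio was 1.08 for Lamp1, 1.09 for Gusb and 0.86 for Npc2. Marker lists of other blood cells stood higher in the same libraries. The summed FPKM of 11 neutrophil and granulocyte precursor markers was 11722 to 37600 in the PD set and 145.5 to 585 in the OB set, and that of 10 mast cell and basophil markers was 984 to 3442 in the PD set and 8.8 to 37.7 in the OB set. The part of those markers in the set difference was not tested, and cells, preparation and annotation of the sets cannot be told apart.

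The defining markers of the labelled cell type were present. All 14 erythroid progenitor markers, among them Kit, Gata1, Klf1 and Epor, passed 1 FPKM in both sets, with sums of 2288 to 5615 FPKM in the PD set and 3263 to 3649 FPKM in the OB set. The 8 hepatocyte markers summed to at most 1.4 FPKM in a PD library and 2.7 FPKM in an OB library. The 13 macrophage markers summed to 7.8 to 23.7 FPKM in the PD set and 0.6 to 2.0 FPKM in the OB set. Sums of the 9 megakaryocyte markers were 2450 to 7883 FPKM in the PD set and 497 to 1425 FPKM in the OB set.

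**Figure D1:**
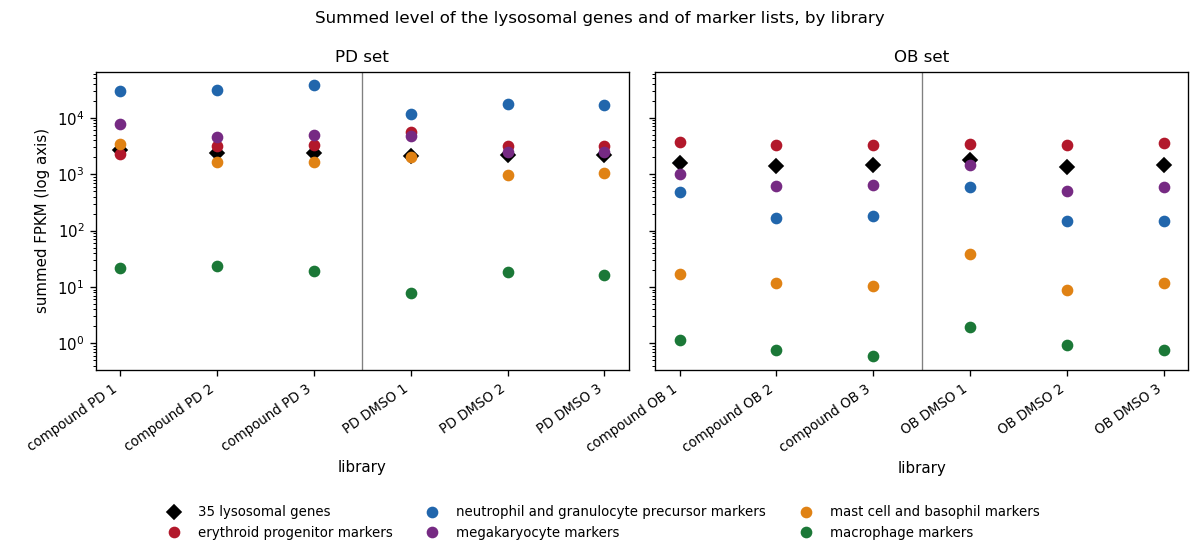
Summed FPKM (log axis) of the 35 lysosomal genes (black diamonds) and of 5 marker lists (coloured circles) in each library, with compound libraries left of their DMSO controls in each panel. In the PD set the granulocyte and macrophage sums are higher in each compound library than in any control, and in the OB set the granulocyte, megakaryocyte and mast cell sums are highest in both replicate 1 libraries.

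The first comparison asks which lysosomal genes differed between BFU-E cultured with compound PD and their DMSO controls. All 35 genes had a mean of at least 1 FPKM and were tested. No gene of the 35 passed an adjusted p of 0.05 (limma with Benjamini-Hochberg adjustment), against 3 of 11887 genes tested, or 0.0252%. The smallest adjusted p among the 35 was 0.180, for Grn. With the unadjusted p under 0.05, 8 of the 35 were higher with compound PD (22.9%) and 0 lower, against 9.04% of all genes higher and 1.62% lower. Of the 35, 29 had a higher mean with compound PD on the log2(FPKM + 1) scale and 6 a lower one. Among all genes tested 59.1% had a higher mean. Their median log2 fold change was 0.25, against 0.06 over all genes tested. With median-ratio scaling the median of the 35 was 0.18 against -0.03 for all genes, and with quantile normalisation 0.20 against -0.03. Each time 29 of the 35 were higher, against 46.0% and 45.3% of all genes. Fold changes on the log2(FPKM + 1) scale understate the change of low genes.

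The groups did not overlap in 15 of the 35 genes, each with all 3 compound PD libraries above all 3 DMSO libraries, while the reverse order was seen in 0. Among all genes tested, 13.1% had compound PD above DMSO without overlap and 3.72% below. The 15 comprised all 4 lipid enzymes and activators, 4 of the 9 glycan enzymes, 2 of the 5 membrane proteins, 2 of the 4 pump subunits, 1 of the 8 cathepsins, 1 of the 3 transcription factors, and Grn. In bulk RNA, more cells of a type and more RNA per cell cannot be told apart. Markers of other cells stood higher in the same libraries. Each of the 11 granulocyte markers had a higher mean with compound PD, and their sums were 29923, 31167 and 37600.0 FPKM with compound PD against 11722, 17688 and 16909 FPKM in PD DMSO. Each of the 9 megakaryocyte markers did too, with sums of 7883, 4499.7 and 4949.9 FPKM with compound PD against 4802, 2459.5 and 2449.7 FPKM in PD DMSO. Of the 8 mast cell and basophil markers tested, 6 had a higher mean with compound PD and 2 a lower one. The mast cell sums were 3442, 1635 and 1657 FPKM with compound PD against 2023, 984 and 1031 FPKM in PD DMSO. The macrophage sums were 21.9, 23.7 and 19.3 FPKM with compound PD against 7.8, 18.2 and 16.2 FPKM in PD DMSO, mostly from Adgre1, Csf1r and Cx3cr1, the 3 of the 13 markers that were tested, each with a higher mean. Of the other 10, 8 stayed under 1 FPKM, with Timd4 and Vsig4 listed at 0 in all 6 PD libraries and C1qa, C1qb, C1qc, Mrc1, Cd5l and Marco at most 0.98 FPKM. Both remaining markers just reached 1 FPKM. Fcgr1 had 0.24, 0.87 and 1.3 FPKM with compound PD against 0.17, 0.66 and 0.37 FPKM in PD DMSO, and Vcam1 had 1.01, 0.26 and 0.28 FPKM with compound PD against 0.36, 0.78 and 0.65 FPKM in PD DMSO. Of the 14 erythroid progenitor markers 5 were higher, with sums of 2288, 3221 and 3222 FPKM with compound PD against 5615, 3184 and 3127 FPKM in PD DMSO. The part of these cells in the lysosomal values was not tested.

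**Figure D2:**
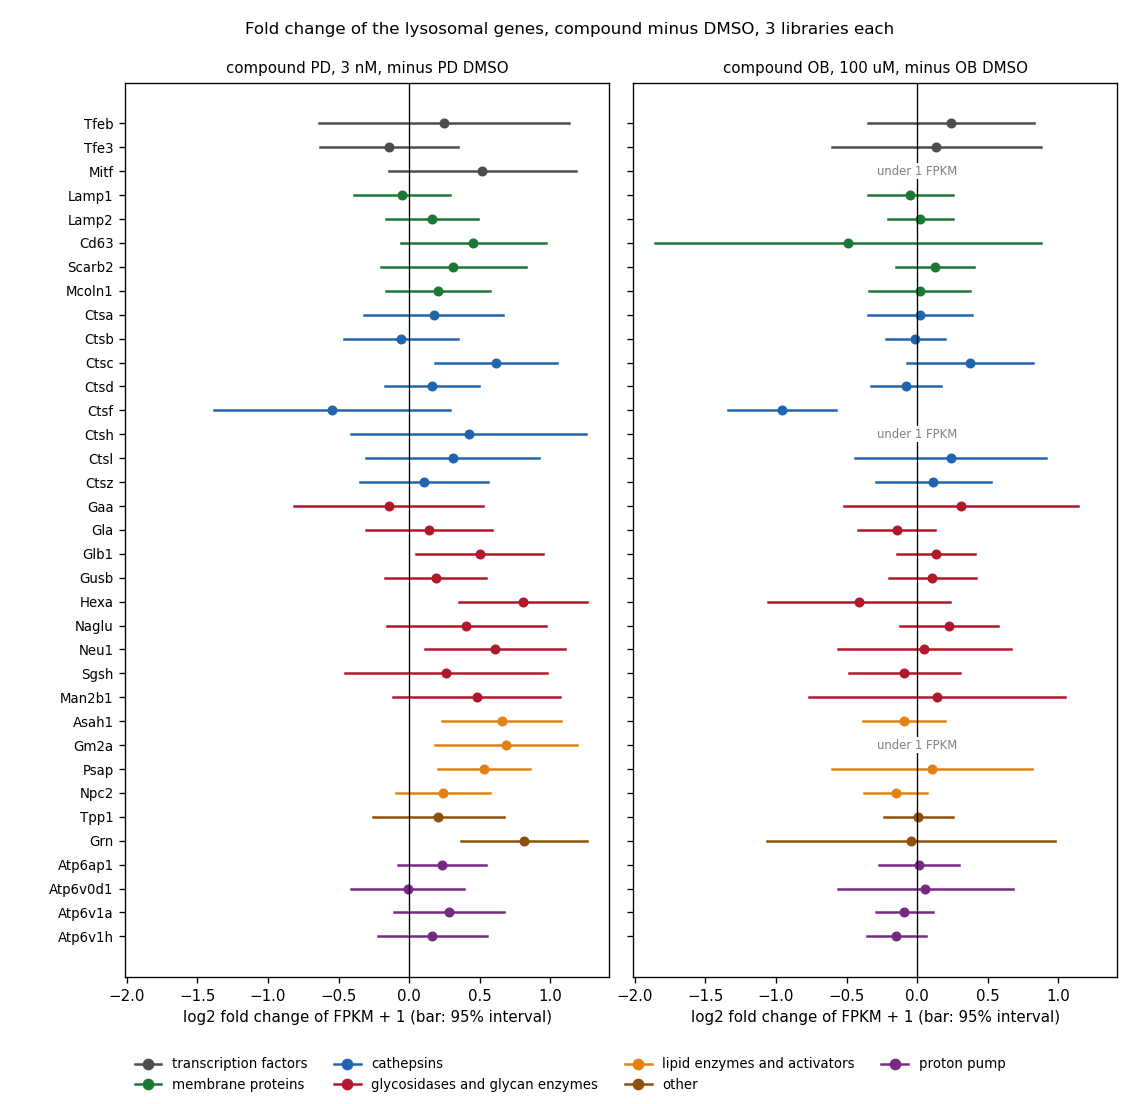
Log2 fold change of FPKM + 1, compound minus DMSO, for each of the 35 genes (points) with its 95% interval from limma (bars), coloured by role, for compound PD at the left and compound OB at the right. The intervals are from fits without pairing by replicate number. With compound PD 29 of 35 points lie above 0 and with compound OB 19 of 32, where 3 genes under 1 FPKM were not tested.

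Among the glycan enzymes 8 of 9 had a higher mean with compound PD, with a median log2 fold change of 0.40. Hexa encodes the alpha subunit of hexosaminidase A, the enzyme that degrades GM2 ganglioside and that is deficient in human Tay-Sachs disease. It lies at chr9:59539540-59565109 (GRCm38.p6), and its promoter without CACGTG is among the sequences above. Hexa had 87.8, 57.9 and 60.3 FPKM with compound PD, against 43.1, 33.1 and 38.8 FPKM in PD DMSO. All 3 compound libraries stood above all 3 controls. The means were 68.7 ± 16.6 and 38.4 ± 5.01 FPKM (SD, n = 3 each), a log2 fold change of 0.81 with an SE of 0.20 and an adjusted p of 0.187 (limma). Neu1, the sialidase that clips terminal sialic acid, had 26.6, 27.7 and 20.9 FPKM with compound PD, against 11.8, 18.2 and 19.1 FPKM in PD DMSO. These groups did not overlap either, and the log2 fold change was 0.61 (SE 0.22, adjusted p = 0.356, limma). Glb1, the beta-galactosidase that Ctsa stabilises together with Neu1, had 23.2, 17.3 and 15.1 FPKM with compound PD, against 11.6, 13.5 and 12.8 FPKM in PD DMSO. Man2b1, the lysosomal alpha-mannosidase, had 53.1, 51.3 and 46.5 FPKM with compound PD, against 22.4, 44.5 and 45.7 FPKM in PD DMSO. Its groups were only 0.79 FPKM apart. Gusb, the beta-glucuronidase with the highest level of the class, had 61.5, 61.7 and 56.8 FPKM with compound PD, against 44.9, 58.9 and 54.8 FPKM in PD DMSO, and its groups overlapped. Gaa, which breaks down glycogen, was the only member of the class with a negative value, -0.15 (SE 0.30), which was 0.063 without PD DMSO replicate 3. The other 3, Gla, Naglu and Sgsh, had log2 fold changes of 0.14 to 0.40 with overlapping groups.

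All 4 lipid enzymes and activators had 3 compound PD libraries above 3 controls, with a median log2 fold change of 0.59. Psap encodes prosaposin, the precursor of the 4 saposins that present sphingolipids to their hydrolases, and had the highest level of the class. It had 155, 164.6 and 161 FPKM with compound PD, against 97.2, 117 and 119 FPKM in PD DMSO. The lowest compound library was 35.9 FPKM above the highest control. The means were 160.2 ± 4.92 and 111 ± 12.0 FPKM (SD, n = 3 each), a log2 fold change of 0.53 (SE 0.14, adjusted p = 0.231, limma). Gm2a had 8.74, 6.72 and 6.63 FPKM with compound PD, against 3.36, 4.34 and 4.91 FPKM in PD DMSO. Its log2 fold change of 0.69 (SE 0.22, adjusted p = 0.293, limma) was the largest of the class. Asah1, the acid ceramidase that yields sphingosine, had 45.5, 31.4 and 36.0 FPKM with compound PD, against 21.8, 26.5 and 21.8 FPKM in PD DMSO (log2 fold change 0.66, SE 0.19, adjusted p = 0.243, limma). Npc2, which carries cholesterol out of the lysosome with NPC1, had 49.3, 47.6 and 52.6 FPKM with compound PD, against 39.9, 45.9 and 40.8 FPKM in PD DMSO. Its groups were 1.72 FPKM apart. Asah1, Neu1, Glb1 and Man2b1, and Lamp2, Scarb2, Ctsl, Gaa and Gla further on, are described in full after their values were seen.

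Grn encodes progranulin, a secreted protein that reaches the lysosome by way of sortilin or prosaposin, and is also abundant in granulocytes and macrophages. It had 128, 106.5 and 101 FPKM with compound PD, against 49.2, 64.2 and 78.6 FPKM in PD DMSO. The lowest compound library stood above the highest control. The means were 112 ± 14.2 and 64.0 ± 14.7 FPKM (SD, n = 3 each), and the log2 fold change of 0.81 (SE 0.20) was the largest of the 35 genes. Tpp1, a tripeptidyl peptidase, had 95.8, 83.7 and 71.2 FPKM with compound PD, against 65.4, 60.02 and 94.1 FPKM in PD DMSO, with overlapping groups.

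**Figure D3:**
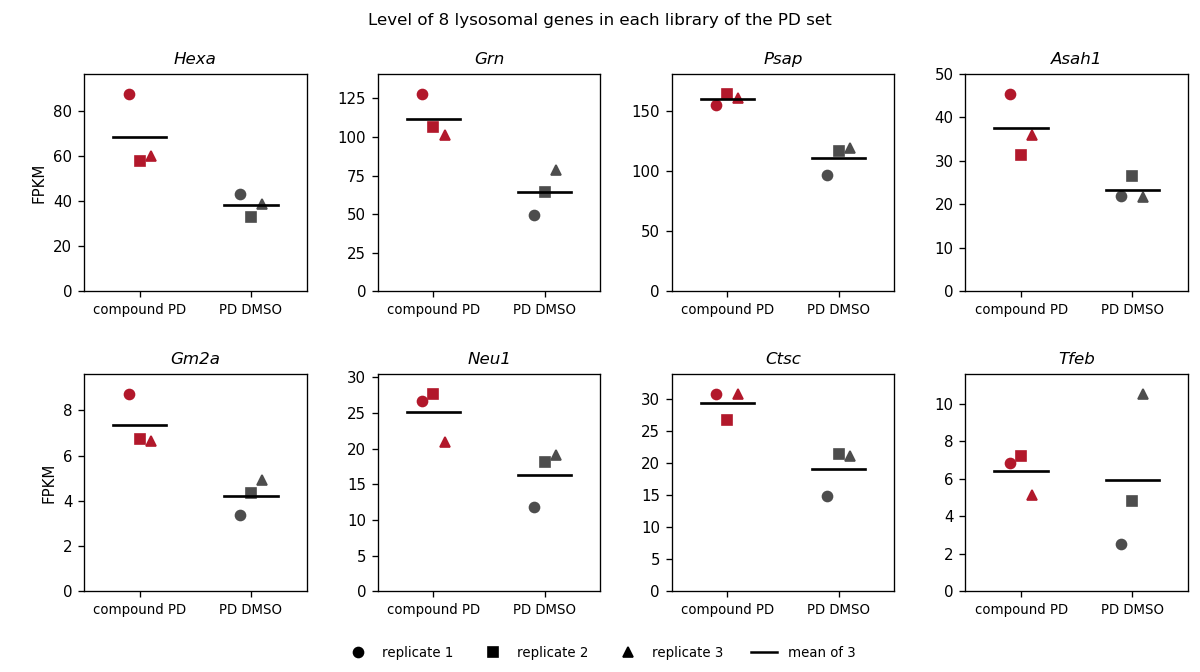
FPKM of 8 genes in each library of the PD set, with compound PD (red) left of PD DMSO (grey), 1 symbol per replicate number and a black line at each mean of 3. In 7 panels all compound libraries lie above all controls, and in the Tfeb panel the 3 compound libraries lie within the range of the controls, 2.53 to 10.5 FPKM.

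Of the cathepsins 6 of 8 had a higher mean with compound PD, with a median log2 fold change of 0.17. Ctsc, dipeptidyl peptidase 1, activates the serine proteases of granulocyte and mast cell granules. It had 30.8, 26.6 and 30.8 FPKM with compound PD, against 14.8, 21.4 and 21.1 FPKM in PD DMSO. The groups did not overlap, and the log2 fold change was 0.61 (SE 0.19, adjusted p = 0.278, limma), the largest positive value of the class. Ctsd had 514, 450.4 and 459 FPKM with compound PD, against 504, 383 and 393 FPKM in PD DMSO, with overlapping groups and a log2 fold change of 0.16 (SE 0.15). Ctsf, a cysteine protease, had 8.44, 11.1 and 10.3 FPKM with compound PD, against 29.0, 8.57 and 13.1 FPKM in PD DMSO. Its log2 fold change of -0.55 (SE 0.37) rested on the first control, and without PD DMSO replicate 1 it was -0.09. The other 5 cathepsins, Ctsa, Ctsb, Ctsh, Ctsl and Ctsz, lay between -0.06 and 0.42 with overlapping groups. The 0.42 was that of Ctsh, which was -0.066 without PD DMSO replicate 1. Of the 35 genes, 9 turned sign when 1 library was left out.

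The 3 regulators lay on both sides of 0. Tfeb had 6.83, 7.23 and 5.16 FPKM with compound PD, against 2.53, 4.81 and 10.5 FPKM in PD DMSO. The control libraries spanned the compound libraries on both sides, and the log2 fold change was 0.25 (SE 0.39, adjusted p = 0.931, limma), or -0.16 without PD DMSO replicate 1. Tfe3 had 14.6, 21.8 and 19.3 FPKM with compound PD, against 17.4, 25.7 and 18.8 FPKM in PD DMSO (log2 fold change -0.14, SE 0.22). Mitf, the family member that mast cells need, had 2.57, 1.64 and 1.33 FPKM with compound PD, against 0.98, 1.15 and 0.76 FPKM in PD DMSO. Its groups did not overlap, with a log2 fold change of 0.52 (SE 0.29, adjusted p = 0.622, limma).

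Among the membrane proteins, 4 of 5 had a higher mean with compound PD. Lamp1 had 248, 243 and 237 FPKM with compound PD, against 210.3, 278 and 269.7 FPKM in PD DMSO, a log2 fold change of -0.05 (SE 0.15). Cd63 had 296, 185 and 207 FPKM with compound PD, against 125, 187 and 187 FPKM in PD DMSO, with compound replicate 2 inside the range of the controls (log2 fold change 0.45, SE 0.23, adjusted p = 0.538, limma). Lamp2, a receptor for chaperone-mediated autophagy, had 63.4, 61.3 and 61.4 FPKM with compound PD, against 50.6, 56.5 and 59.6 FPKM in PD DMSO. Scarb2, which carries glucocerebrosidase to the lysosome, had 9.58, 8.92 and 9.57 FPKM with compound PD, against 5.23, 8.70 and 8.59 FPKM in PD DMSO. Both were apart by less than 2 FPKM. Mcoln1, whose promoter holds CACGTG at 2 places, had a log2 fold change of 0.20 (SE 0.16) with overlapping groups.

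The proton pump subunits had log2 fold changes of -0.01 to 0.28 with compound PD. Atp6v1a, the catalytic subunit, had 54.7, 45.1 and 44.6 FPKM with compound PD, against 33.1, 42.7 and 42.6 FPKM in PD DMSO (log2 fold change 0.28, SE 0.17, adjusted p = 0.660, limma). Atp6ap1, an accessory subunit, had 85.2, 86.3 and 87.2 FPKM with compound PD, against 68.1, 75.6 and 76.4 FPKM in PD DMSO, with a log2 fold change of 0.23 (SE 0.14). Neither pair of groups overlapped. Atp6v0d1, a subunit of the membrane part of the pump, had 93.9, 94.2 and 98.3 FPKM with compound PD, against 119.9, 94.6 and 78.4 FPKM in PD DMSO, so that the controls spanned the compound libraries. Atp6v1h, a regulatory subunit, had a log2 fold change of 0.16 with overlapping groups.

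PD DMSO replicate 1 was low for many of these genes. It was the lowest of the 6 libraries for 25 of the 35 genes (71.4%), against 49.6% of all genes tested. Its median-ratio size factor was 0.837, against 1.01 to 1.07 for the other 5 libraries. Without it the median log2 fold change of the 35 was 0.15, against -0.02 over all genes. Of the 35, 27 were then higher, against 47.0% of all genes. The 15 genes counted above cannot overlap once a control is left out. Ctsb and Ctsd joined them, making 17 of 35 higher without overlap against 18.2% of all genes, while Gaa and Lamp1 were lower without overlap, 2 of 35 against 20.8% of all genes. In limma without both replicate 1 libraries, which leaves 2 against 2, Hexa (adjusted p = 0.0466) and Psap (adjusted p = 0.0445) passed the threshold, 2 of 35 against 2.12% of all genes. That comparison was added after the values were seen. The 35 genes summed to 2672 FPKM in compound PD replicate 1, against 2373.5 and 2392.9 FPKM in replicates 2 and 3. Its mast cell and megakaryocyte sums were the highest of the 6 libraries, its granulocyte sum the lowest with compound PD. Without that library 31 of the 35 were higher, against 55.7% of all genes. The smallest adjusted p was then 0.571 (limma), and 5 of the 35 had an unadjusted p under 0.05, against 749 of 11825 genes.

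Genes with CACGTG in the promoter were set beside those without it. With compound PD the 13 genes with it had a median log2 fold change of 0.17, and 9 were higher. The 18 without it had a median of 0.38, and 17 were higher, while 59.1% of all genes tested were higher. With compound OB the medians were 0.016 for the 13 with it and 0.076 for the 16 tested without it. No test was made of these groups of genes, which are not replicates.

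The second comparison asks the same of compound OB at 100 µM. Mitf, Ctsh and Gm2a stood under 1 FPKM in the OB set, and 32 of the 35 genes were tested. None of the 32 passed an adjusted p of 0.05 in limma, against 0 of 10105 genes tested (0%). With the unadjusted p under 0.05 there was 1 gene of the 32, Ctsf, against 3.69% of all genes (373 genes), or 2.45% higher and 1.24% lower. The median log2 fold change of the 32 was 0.017, against 0.030 over all genes. Of the 32, 19 were higher and 13 lower, against 58.7% of all genes higher. When 1 library was left out, 16 of the 32 turned sign. With median-ratio scaling or quantile normalisation 14 of the 32 were higher, against 49.3% and 49.7% of all genes. The medians of the 32 were -0.016 and -0.026. All 3 compound libraries lay below all 3 controls in 3 of the 32 genes, Ctsf, Gla and Atp6v1h, against 3.41% of all genes, and above them in 0, against 5.32%, or 3 in all against 8.74%. When libraries of the same replicate number were compared within their pair, 0 of the 32 passed an adjusted p of 0.05, against 7 of all genes (0.0693%). In that paired fit 6 of the 32 had an unadjusted p under 0.05, against 14.9% of all genes, namely Ctsc and Ctsl with higher values and Cd63, Ctsf, Hexa and Npc2 with lower ones.

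Ctsf had the largest fold change of the 35 genes in either comparison. It lies at chr19:4855165-4860918 (GRCm38.p6), and its promoter with 1 CACGTG is printed above. It had 4.66, 4.27 and 3.87 FPKM with compound OB, against 11.3, 7.49 and 9.16 FPKM in OB DMSO. The highest compound library was 2.83 FPKM below the lowest control. The means were 4.27 ± 0.40 and 9.32 ± 1.92 FPKM (SD, n = 3 each), a log2 fold change of -0.96 with an SE of 0.16. Its adjusted p was 0.495 in limma, and 0.0721 in the paired fit, where the SE was 0.11. The fold change stayed between -1.09 and -0.82 whichever library was left out.

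The other cathepsins lay on both sides of 0. Ctsc had 17.1, 23.3 and 25.2 FPKM with compound OB, against 13.4, 18.0 and 18.5 FPKM in OB DMSO. It was higher in each of the 3 pairs, though the first compound library lay within the range of the controls, with a log2 fold change of 0.37 (adjusted p = 1.00 in limma, 0.153 in the paired fit). Ctsl, a cysteine protease with a broad range of substrates, had 17.8, 31.5 and 32.8 FPKM with compound OB, against 16.2, 24.8 and 27.6 FPKM in OB DMSO, and was also higher in each pair (log2 fold change 0.24, adjusted p = 0.291 in the paired fit). Ctsd had 332, 287 and 299.9 FPKM with compound OB, against 356, 290.1 and 325 FPKM in OB DMSO, lower in each pair with a log2 fold change of -0.08 (SE 0.10).

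Hexa had 12.5, 11 and 9.93 FPKM with compound OB, against 24.1, 12.0 and 11.8 FPKM in OB DMSO. Its groups overlapped, the log2 fold change was -0.41 (SE 0.27, or 0.16 in the paired fit), and without OB DMSO replicate 1 it was -0.09. Gla, the alpha-galactosidase that is deficient in human Fabry disease, had 5.12, 5.37 and 4.89 FPKM with compound OB, against 5.52, 5.48 and 6.37 FPKM in OB DMSO, where the groups were 0.11 FPKM apart. Atp6v1h had 49.9, 50.01 and 48.7 FPKM with compound OB, against 56.9, 50.9 and 57.4 FPKM in OB DMSO. The gap between its groups was 0.90 FPKM, with a log2 fold change of -0.15 (SE 0.09). Gusb had 55.9, 51.7 and 53.1 FPKM with compound OB, against 59.8, 44.1 and 46.3 FPKM in OB DMSO, with overlapping groups. Npc2 had 51.8, 48.1 and 52.0 FPKM with compound OB, against 60.6, 51.9 and 56.8 FPKM in OB DMSO. It was lower in each pair, with a log2 fold change of -0.15 (SE 0.09). Tpp1 had 56.8, 56.0 and 60.9 FPKM with compound OB, against 64.4, 52.7 and 56.0 FPKM in OB DMSO, and Atp6ap1 had 72.2, 62.3 and 66.5 FPKM with compound OB, against 75.4, 58.5 and 66.1 FPKM in OB DMSO. Their log2 fold changes, 0.0090 for Tpp1 and 0.012 for Atp6ap1, turned negative with median-ratio scaling or quantile normalisation.

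**Figure D4:**
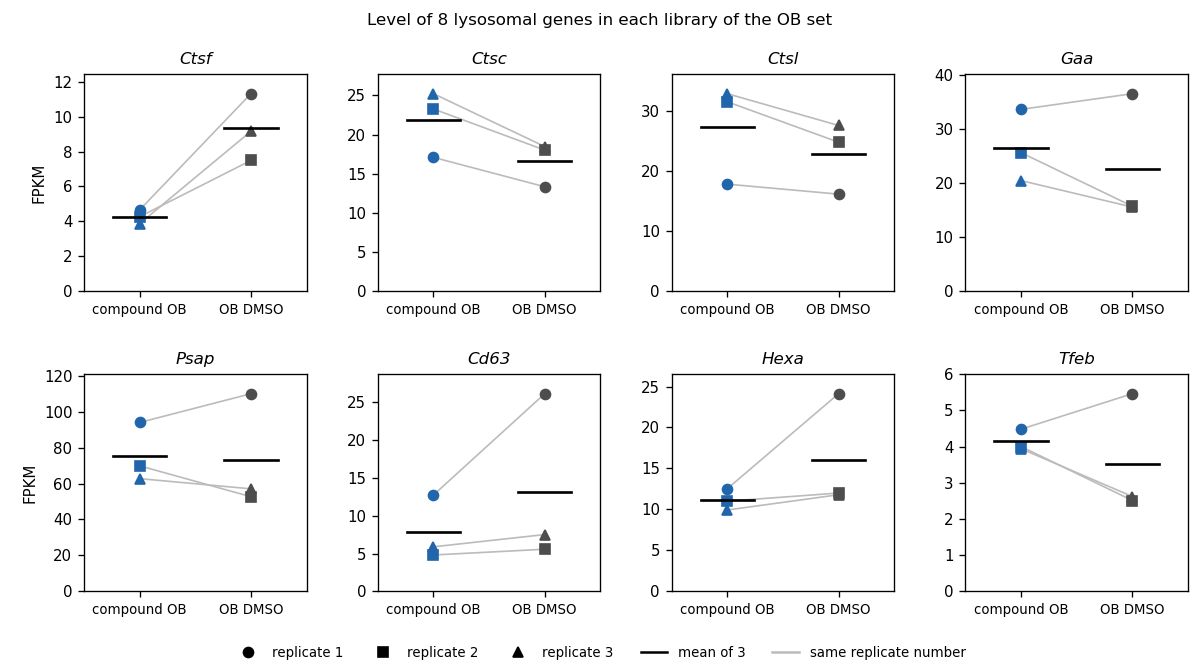
FPKM of 8 genes in each library of the OB set, with compound OB (blue) left of OB DMSO (grey), 1 symbol per replicate number, grey lines between libraries of the same number and a black line at each mean of 3. Ctsf is lower with compound OB in all 3 pairs, Ctsc and Ctsl are higher in all 3, and in the panels of Gaa, Psap, Cd63, Hexa and Tfeb both replicate 1 libraries are the highest of the 6.

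Both replicate 1 libraries of the OB set stood apart for many lysosomal genes. They lay above the other 4 libraries in 18 of the 32 genes (56.25%), against 30.1% of all genes tested, and below them in 4 (12.5%), namely Lamp2, Ctsc, Ctsl and Asah1, against 29.0%. Cd63 had 12.7, 4.81 and 5.89 FPKM with compound OB, against 26.1, 5.57 and 7.51 FPKM in OB DMSO. Grn had 15.3, 9.57 and 8.65 FPKM with compound OB, against 23.2, 7.63 and 7.75 FPKM in OB DMSO. In both genes replicate 1 was the highest library of its group. Psap had 94.0, 69.9 and 62.7 FPKM with compound OB, against 110.01, 52.7 and 57.1 FPKM in OB DMSO, and Atp6v0d1 had 81.5, 55.8 and 55.2 FPKM with compound OB, against 88.4, 49.6 and 50.6 FPKM in OB DMSO. Markers of other cells were also highest in replicate 1. The granulocyte sums were 489, 166 and 181 FPKM with compound OB, against 585, 148 and 145.5 FPKM in OB DMSO. The megakaryocyte sums were 1021, 609.6 and 647 FPKM with compound OB, against 1425, 497 and 583 FPKM in OB DMSO. The mast cell sums were 17.0, 11.7 and 10.4 FPKM with compound OB, against 37.7, 8.8 and 11.6 FPKM in OB DMSO. The macrophage sums were at most 2.0 FPKM in any library, with C1qb, C1qc, Cd5l and Vsig4 listed at 0 in all 6. Their part in the lysosomal values was not tested.

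Without both replicate 1 libraries more genes passed, in comparisons of 2 against 2 that were added after the values were seen. In limma without pairing, 7 of the 32 had an adjusted p under 0.05, against 17.8% of all genes, and in the paired fit 4 of the 32, against 11.3%. The 4 were Ctsc (log2 fold change 0.39), Gaa (0.52) and Tfeb (0.48), higher with compound OB, and Ctsf (-0.87), lower. The 7 were these 4 with Ctsl, Man2b1 and Psap. Shares of 21.9% and 12.5% of the lysosomal genes thus stand beside 17.8% and 11.3% of all genes. In the paired fit without both replicate 2 libraries 1 of the 32 passed, Ctsf, against 1.45% of all genes. Tfeb had 4.48, 4.0 and 3.94 FPKM with compound OB, against 5.46, 2.51 and 2.62 FPKM in OB DMSO, so compound libraries 2 and 3 were above controls 2 and 3 while compound library 1 was below control 1. Over all 6 libraries its log2 fold change was 0.24 (SE 0.25, or 0.16 in the paired fit). Tfe3 had 19.8, 13.2 and 11.3 FPKM with compound OB, against 20.6, 9.92 and 10.6 FPKM in OB DMSO. Its log2 fold change was 0.14 (SE 0.31, or 0.10 in the paired fit). Mitf had at most 0.40 FPKM in any library. Lamp1 had 244, 217.1 and 214 FPKM with compound OB, against 277, 209 and 217.3 FPKM in OB DMSO, and Atp6v1a had 44.9, 48.0 and 49.9 FPKM with compound OB, against 49.0, 50.9 and 52.3 FPKM in OB DMSO. Atp6v1a was lower in each pair.

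**Figure D5:**
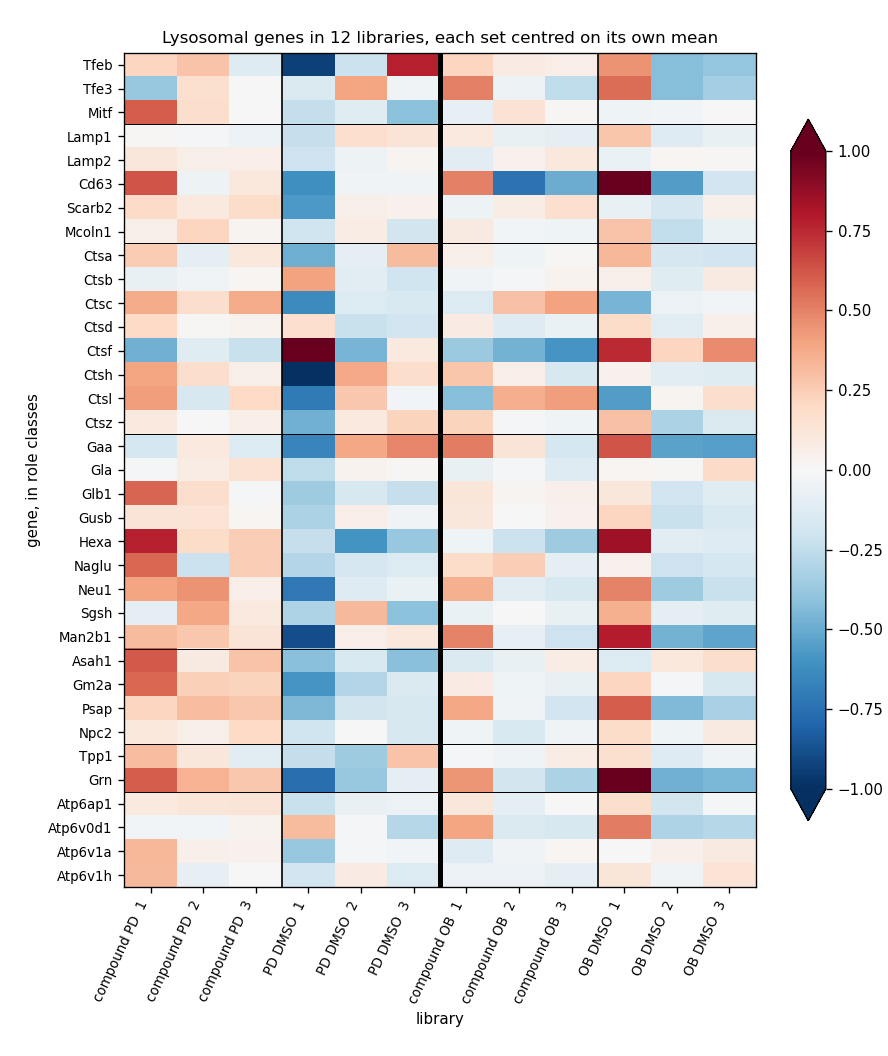
Log2(FPKM + 1) of the 35 genes (rows, in role classes) in 12 libraries (columns), minus the gene's mean over the 6 libraries of its own set, with compound libraries left of their DMSO controls in each set. PD DMSO 1 is the lowest of its set in 25 of the 35 genes, both OB replicate 1 libraries are above the other 4 in 18 of the 32 genes tested, and differences of Mitf, Ctsh and Gm2a in the OB set lie under 1 FPKM.

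Both compounds were set side by side, at their different doses. Of the 32 genes tested in both sets, 16 had higher means with both compounds, 3 had lower means with both, 10 were higher with compound PD and lower with compound OB, and 3 were the reverse. The Spearman's rho between both log2 fold changes was 0.06 over the 32 genes, against 0.07 over 9286 genes tested in both, as a description over genes that share libraries. The difference itself, the compound PD effect minus the compound OB effect, was tested in 1 fit of all 12 libraries, without pairing. No gene of the 34 tested passed an adjusted p of 0.05 in limma, against 0 of 10344 genes (0%), of which 763 (7.38%) had an unadjusted p under 0.05. With the unadjusted p under 0.05, 4 of the 34 differed, all with the larger value for compound PD (11.8%), against 5.69% of all genes higher and 1.68% lower. They were Hexa, with a difference of 1.22 on the log2 scale (95% interval 0.47 to 1.97, adjusted p = 0.421, limma), Asah1 with 0.75 (0.26 to 1.24), Npc2 with 0.39 (0.02 to 0.75) and Gm2a. Gm2a was not tested in the OB set, where it averaged 0.28 FPKM, and its value of 0.71 largely restates its change with compound PD. Of the 32 genes tested in both sets 3 remain. For Ctsf the difference was 0.41 (-0.56 to 1.37) and for Tfeb 0.01 (-1.07 to 1.09), intervals that leave room for sizeable differences in either direction. Compound, dose and set go together, so that a difference of compounds cannot be told apart from one of the sets.

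Further genes of the pathway were taken from 6 lists outside the 35, and 0 of them passed an adjusted p of 0.05 with either compound. The unadjusted p was under 0.05 for the numbers of genes given with each list. Over all genes tested with compound PD, 59.1% had higher means, and 9.04% were higher and 1.62% lower under that p. With compound PD, 25 of the 33 further lysosomal hydrolases tested had higher means (median log2 fold change 0.23), with 9 of them and 1 lower gene under that p. Ctss, a cysteine protease of antigen-presenting and other myeloid cells, had the smallest p of the list. It had 7.82, 10.8 and 12.95 FPKM with compound PD, against 2.58, 3.04 and 2.82 FPKM in PD DMSO, a log2 fold change of 1.57 (SE 0.23, adjusted p = 0.0906, limma). Without PD DMSO replicate 1 it was the 1 further hydrolase with an adjusted p under 0.05. Of 21 further membrane proteins 15 were higher (median 0.17, 2 under that p), led by the calcium channel gene Tpcn2, with 4.79, 5.69 and 4.54 FPKM with compound PD against 2.07, 2.18 and 2.58 FPKM in PD DMSO. Of 13 further pump subunits 9 were higher (median 0.10, 2 under that p). Tcirg1, the form of the pump's a subunit that osteoclasts use, had 63.1, 60.9 and 67.3 FPKM with compound PD, against 22.1, 28.9 and 43.5 FPKM in PD DMSO (log2 fold change 1.05, adjusted p = 0.158, limma).

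Of 9 genes that sort enzymes to the lysosome 7 were higher with compound PD (median 0.18, 1 under that p). Sort1, the sortilin that carries prosaposin and progranulin, had 43.7, 36.6 and 34.1 FPKM with compound PD, against 17.3, 23.2 and 22.8 FPKM in PD DMSO (log2 fold change 0.83, SE 0.18, adjusted p = 0.158, limma). Of 21 genes of mTORC1, its Ragulator anchor and other control of TFEB 14 were higher (median 0.10, 1 under that p), with the smallest p for Lamtor4, at 74.4, 55.1 and 68.3 FPKM with compound PD against 34.9, 47.7 and 50.6 FPKM in PD DMSO. Of 20 autophagy genes 11 were higher (median 0.02). The gene with the smallest p there was lower. Map1lc3b, an LC3 gene of the autophagosome membrane, had 123, 154 and 149 FPKM with compound PD, against 210.5, 174 and 196 FPKM in PD DMSO (log2 fold change -0.45, adjusted p = 0.317, limma).

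With compound OB all lists but that of the sorting genes had medians close to 0. Higher means were found in 18 of 30 hydrolases, 11 of 20 membrane proteins, 5 of 13 pump subunits, 9 of 20 mTORC1 and Ragulator genes and 12 of 20 autophagy genes, with medians between -0.062 and 0.039. All 9 sorting genes had higher means (median 0.18). The unadjusted p was under 0.05 for 1 hydrolase, 1 pump subunit, 1 sorting gene and 1 autophagy gene, and for no gene of the membrane protein and mTORC1 lists, against 3.69% of all genes tested. Higher means were found in 58.7% of all genes. Rragd, of the mTORC1 list, averaged under 1 FPKM over the OB libraries and was not tested. It had 0.25, 0.38 and 0.39 FPKM with compound OB, against 1.01, 1.38 and 1.52 FPKM in OB DMSO, without overlap. The smallest p of the sorting list belonged to Igf2r, the larger mannose 6-phosphate receptor, with 12.8, 17.9 and 16.7 FPKM with compound OB, against 11.7, 12.1 and 12.8 FPKM in OB DMSO (log2 fold change 0.34, adjusted p = 1.00, limma). In the remaining lysosomal and autophagy lists the smallest p belonged to Rnaset2b (log2 fold change 0.31), Abca2 (0.34), Atp6v0e (-0.24), Mtor (0.28) and Bnip3l (-0.33). Bnip3l, which encodes the NIX receptor that marks mitochondria for removal in maturing red cells, had 75.0, 63.9 and 70.8 FPKM with compound OB, against 79.3, 84.4 and 102 FPKM in OB DMSO, with all 3 compound libraries below the controls.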

How the data were processed

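RNA levels are the FPKM values of each gene that the authors deposited with 2 decimals for 12 libraries. The aligner was STAR and the build mm10, per the submitters' processing notes. For the program behind the FPKM, the annotation and the use of strand, the sources used here give no name. Overlapping, antisense or near-identical genes therefore have uncertain values. In the OB set 379 entries whose names had been split were left out, in the PD set 185 repeated entries, and in each set 27 names turned into dates. Depth is unknown, since FPKM carry no counts, and the SD over 3 libraries gives the precision. A search for steps of whole reads found 10.3% of ratios whole within 0.05 in both sets, against 10% by chance.

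Compounds were compared with their own controls in limma 3.58.1 (R 4.3.3, statmod 1.5.0), using its trend and robust options and log2(FPKM + 1). Genes whose mean over the fitted libraries was under 1 FPKM were not tested. P-values were two-sided and Benjamini-Hochberg adjusted over all genes, with a threshold of 0.05, and members were not adjusted apart. The paired fit adds the replicate number as a block. SEs, intervals and p-values are from fits without pairing unless the paired fit or the replicate block is named. Deviations from group means correlated between same-numbered OB libraries with r = 0.83, 0.43 and 0.65 over 10105 genes, so the numbers were taken to pair that set. Compound 3 with DMSO 2 gave 0.41, close to the 0.43 of pair 2, compound 2 with DMSO 3 gave 0.33, and replicate 1 with other numbers gave -0.71 to -0.54, so that mainly replicate 1 stood apart. The code was tested on simulated data. Named genes were the 3 transcription factors and, in each role class, the gene with the highest mean and that with the largest fold change in each set. The members, the lists and this rule were chosen with earlier results of these data known. Alternatives were another pseudocount, other filters on low values, other scalings, a spread taken from all 12 libraries, the replicate block, and leaving out libraries. Coordinates and promoters are RefSeq's for GRCm38.p6, the assembly behind mm10. Tables and figures were made with Python 3.11.15, pandas 2.3.3, numpy 2.4.6 and matplotlib 3.10.9.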

Additional observations from a re-analysis of the deposited data

How the results depend on the processing

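No lysosomal gene of the 35 passed the threshold with compound PD or compound OB with another pseudocount, filter or scaling, with the replicate block, with the spread from all 12 libraries, or with any single library left out. The counts over all genes moved. With compound OB, 7 genes passed with the replicate block and 1 with the spread from all 12 libraries, and leaving libraries out gave 0 to 1781. With compound PD, 41 passed with the replicate block, 33 with the spread from all 12 libraries and 0 with no filter on low values, and leaving libraries out gave 0 to 252. Of the further hydrolases 1 gene, Ctss, passed with the replicate block and 1 with the spread from all 12 libraries, with compound PD. Same-numbered PD libraries did not correlate (r = -0.01, -0.03 and -0.02), so the block is no pairing there.

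In comparisons added after the values were seen, leaving libraries out gave 0 to 7 lysosomal genes with compound OB and 0 to 2 with compound PD. In the replicate block fit without a pair, compound OB gave 4 lysosomal genes and 1129 of all genes without pair 1, 1 and 147 without pair 2, and 0 and 3 without pair 3. Compound PD gave 0 lysosomal genes and 206, 70 and 82 of all genes without pairs 1, 2 and 3.

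With compound OB, median-ratio scaling gave -0.0225 for Atp6ap1 and -0.0256 for Tpp1, and quantile normalisation -0.0203 for Atp6ap1 and -0.0371 for Tpp1. With compound PD, quantile normalisation gave 0.0055 for Atp6v0d1. Leaving out 1 library turned the sign of 16 of 32 genes with compound OB, with ranges of -0.0825 to 0.45 for Tfe3, -0.0773 to 0.10 for Atp6ap1, -0.12 to 0.33 for Atp6v0d1, -0.89 to 0.13 for Cd63, -0.29 to 0.45 for Grn, -0.12 to 0.0754 for Lamp1, -0.0902 to 0.43 for Psap and -0.0524 to 0.0898 for Tpp1, and for Lamp2, Mcoln1, Ctsa, Ctsb, Ctsz, Neu1, Sgsh and Man2b1 ranges between -0.17 and 0.57. Dropping 1 library breaks a pair. Without a whole pair 11 of the 32 turned sign, Grn among them, while Cd63 stayed negative (-0.64 to -0.24). With compound PD 9 of 35 turned sign without 1 library, with ranges of -0.16 to 0.70 for Tfeb, -0.26 to 0.0163 for Tfe3, -0.17 to 0.0257 for Lamp1, -0.16 to 0.15 for Atp6v0d1, -0.0250 to 0.38 for Ctsa, -0.17 to 0.13 for Ctsb, -0.0661 to 0.71 for Ctsh, -0.11 to 0.25 for Ctsz and -0.51 to 0.063 for Gaa. Without both libraries of a replicate number 11 of the 35 turned sign with compound PD. Among them were Ctsf, Ctsl and Atp6v1h, which kept their sign without 1 library. The cause was not tested.

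Groups of 3, unknown depth and unstated sampling limit what these libraries can show. The low levels of Tfeb, Mitf and Gm2a are given on a scale that shrinks their fold changes.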
